A study of Mus musculus with 2 samples.

Results

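Rab GTPases were examined in pancreatic islets of neonatal mice, comparing PERK knockout with wild type. The members are the genes whose single platform symbol is Rab followed by a number and an optional letter, and 50 such genes, on 95 probe sets, were found among the 12393 named genes of the array. Of these, 7 are secretory Rabs (the Rab3, Rab27 and Rab37 genes) and 43 are other Rabs. A further 9 Rab genes of the RefSeq table, among them Rab26 and Rab35, were not analysed here.

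There was 1 array for PERK knockout islets and 1 array for wild-type islets, both from mice 2 days after birth. PERK, the product of Eif2ak3, is a kinase in the membrane of the endoplasmic reticulum (ER) that slows translation under unfolded protein stress by phosphorylating eIF2 alpha. The labels give mixed strains and mixed sexes for the wild type and neither for the knockout. They do not say how the knockout allele was made, how many pups gave islets, or whether pups were pooled. Islets were freed with collagenase P, and their labelled cRNA was hybridised to Affymetrix mouse 430A arrays, on which each probe set is a group of short oligonucleotides for a transcript.

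Rab proteins are small GTPases that mark the membranes of the secretory and endocytic pathways. In the GTP-bound state a Rab recruits effectors that tether, move or dock a vesicle. Exchange factors load GTP, GTPase-activating proteins (GAPs) promote its hydrolysis, and GDP dissociation inhibitors (GDIs) extract the prenylated Rab from the membrane. In endocrine cells Rab3 and Rab27 proteins sit on hormone granules, where Rab27a binds granuphilin to dock insulin granules at the plasma membrane.

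Each value below is an array signal in arbitrary intensity units, taken from the probe set of a gene with the highest mean signal. Signals of different probe sets are not compared as transcript levels. A gene was called measured when both arrays were above a floor of 39.8, the 40th percentile of all signals. Above the floor on 1 array only, a gene has a bound. Ratios are log2 of knockout over wild type. A genotype is represented by 1 array, so replicate error is unknown, no test was run, and each ratio compares these 2 libraries. The only error available is the disagreement between probe sets of the same gene, with an SD of 0.26 (log2, per probe set) over 2597 genes and 0.23 over the 18 Rab genes with at least 2 measured probe sets. It does not cover animals, litters or RNA preparations.

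The targeted gene Eif2ak3 had a signal of 58.7 in the knockout and 117.7 in the wild type, 2.01-fold lower. Neither of its other probe sets passed the floor, and whether any lies in a deleted part is not stated in the labels. Islet and acinar genes were bright on both arrays, with the amylin gene Iapp at 6149 in the knockout and 6710 in the wild type, and the acinar elastase gene Cela3b at 7119 in the knockout and 7279 in the wild type. All 17 measured immune markers were above equality (median log2 ratio 0.72), as were all 9 markers of alpha, delta, PP and epsilon cells (0.26). Among them Gcg (0.01), Ttr (0.02), Sst (0.06) and the immune marker Csf1r (0.07) were near level, and their side of equality depends on the scaling. Of 7 beta cell markers 6 were below equality (median -0.58). The exception was Ins2, at 6163 in the knockout and 5652 in the wild type (0.12), and Iapp was at -0.13. The medians were 0.14 over 19 acinar, 0.0035 over 8 duct, -0.12 over 10 endothelial, -0.02 over 11 mesenchymal and -0.04 over 5 neuronal and Schwann markers. The brightest members of the lists not yet named had log2 ratios of 2.69 (S100a9, immune), 0.02 (Ttr, alpha cells), -0.0021 (Krt8, duct), -0.10 (Esam, endothelial), -0.02 (Sparc, mesenchymal) and -0.26 (Th, neuronal). In such bulk tissue, fewer cells of a type and less RNA per cell cannot be told apart.

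Most Rab transcripts differed little between the libraries, and the largest differences were those of Rab3b and Rab6b, both higher in the knockout. Of the 50 Rab genes, 42 were measured, the floor was passed on 1 array only by 2, and 6 did not pass it on either. The median log2 ratio over the 42 was 0.06, beside 0.03 over all 8133 measured genes. Of the 42, 25 were above equality (59.5%, beside 54.9% of all measured genes) and 17 below. Centring the arrays on their medians gave 17 above and 25 below, so the family as a whole had no direction that held under every scaling.

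At least 1.5-fold differences were found for 2 of the 42 measured Rab genes, both higher, where 4.19% of all measured genes were that much higher. No measured Rab gene was 1.5-fold lower, where 2.95% of all measured genes were. These counts are near the background. The same 2 genes were at least 2-fold higher, where 0.516% of all measured genes were, and none was 2-fold lower, where 0.652% were. Over all genes the 1.5-fold limit called 341 higher and 240 lower, a split that became 214 and 362 with median centring and 264 and 293 with quantile normalisation. Within 1.2-fold lay 30 of the 42 Rab genes (71.4%), beside 64.2% of all measured genes. The median size of the log2 ratio, without sign, was 0.13 for Rab genes and 0.19 for all measured genes. Rab genes were also the brighter set, with a median mean signal of 290.5 beside 160.6, and probe sets disagreed less with brightness, from an SD of 0.29 among the dimmest 650 of the 2597 genes to 0.20 among the brightest 649.

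**Figure D1:**
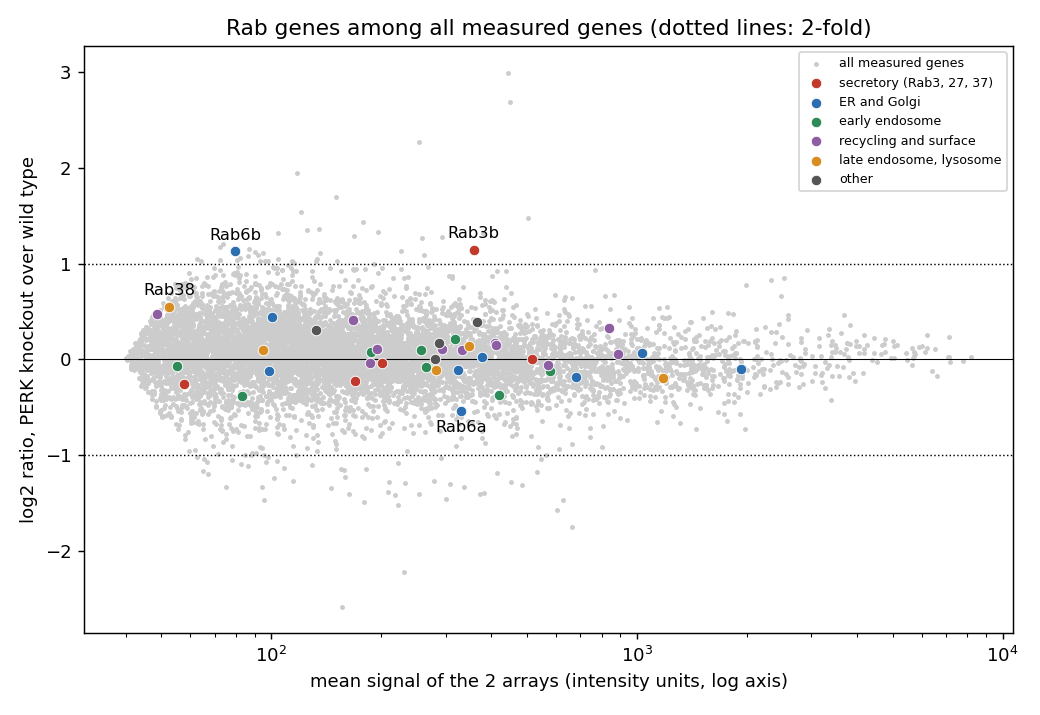
Log2 ratio of PERK knockout over wild type against the mean signal of the 2 arrays (log axis), for all 8133 measured genes in grey and the 42 measured Rab genes coloured by role. Rab3b and Rab6b lie above the dotted 2-fold line, and no Rab gene lies below the lower one.

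Among the secretory Rabs, Rab3b stood apart from the other members. Rab3b, a Rab3 isoform found on secretory vesicles of pituitary and epithelial cells, had a signal of 492.8 in the knockout and 223 in the wild type, 2.21-fold higher (log2 ratio 1.14). Only 20 of the 8133 measured genes had a ratio at least as high, itself included. Its mean signal falls in the range from 251.1 to 522.4, where probe sets of a gene disagreed by an SD of 0.24. Rab3b was 1 of the 24 measured Rab genes with a single measured probe set, so no second value is at hand.

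The other measured secretory Rabs had ratios near or below equality on their brightest probe sets. Rab3a, the main Rab3 of synaptic vesicles and also present on insulin granules, had a signal of 156.1 in the knockout and 182.2 in the wild type (log2 ratio -0.22). Rab3d, the Rab3 of zymogen granules in acinar cells, was level on its brightest probe set, at 518.1 in the knockout and 516.6 in the wild type. Its next 2 probe sets read lower in the knockout: 216.7 against 299.7 in the wild type (log2 ratio -0.47), and 227.6 against 268.6 (-0.24). The fourth read 63 in the knockout and 34.9 in the wild type, at least 1.58-fold higher against the floor. The probe sets of Rab3d therefore did not give 1 answer. Rab37, found on granules of mast and beta cells, had a signal of 197.7 in the knockout and 203.1 in the wild type (-0.04). Rab27b, which acts in granule release from acinar cells and platelets, had 52.6 in the knockout and 62.7 in the wild type (-0.25), both close to the floor.

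No probe set of Rab27a or Rab3c passed the floor, so no ratio can be given for either. The brightest probe set of Rab27a read 28.8 in the knockout and 29.1 in the wild type, and that of Rab3c read 19.3 in the knockout and 33.4 in the wild type. A signal under the floor on these probe sets does not show that the transcript was absent. Over the 5 measured secretory Rabs the median log2 ratio was -0.04 and the mean 0.13, of opposite sign, with Rab3b the only member past 1.5-fold. The mean was 0.03 with median centring, and -0.025 over 7 genes with a floor at the 25th percentile. The difference of medians, secretory minus the other 37 measured Rabs (0.07), was -0.11. It was -0.32 with the median of all measured probe sets of a gene or with the second brightest one, where the secretory median was -0.22, so its size depends on the probe set chosen.

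**Figure D2:**
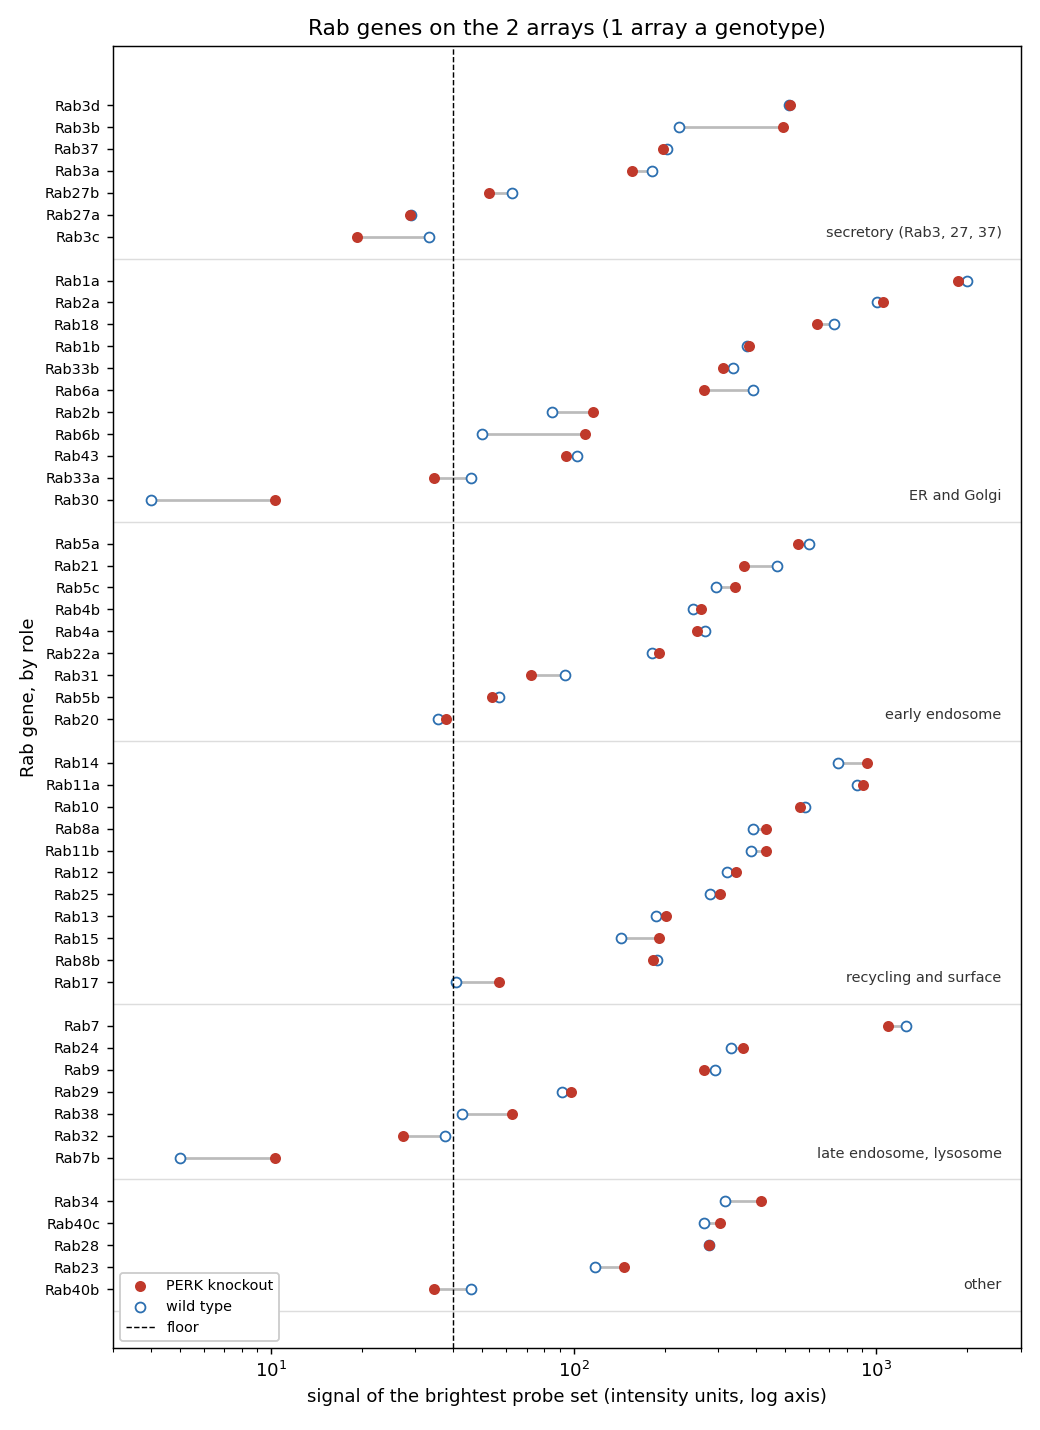
Signal of the brightest probe set of each of the 50 Rab genes (log axis), with filled points for PERK knockout and open points for wild type, 1 array each, grouped by role. The longest lines to the right of the dashed floor (39.8) belong to Rab3b and Rab6b, and values left of the floor have no order.

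Markers of several cell types also differed between the libraries, some lists being higher in the knockout and others lower. With 1 array per genotype, no covariation of any list with Rab3b can be shown. The summed signals given for marker lists cover all members on the array, those under the floor included. They are weighted towards the brightest probe sets and are not amounts of a cell type. The summed signal of the 21 immune markers was 5049 in the knockout and 2121 in the wild type, with 17 of 17 measured members above equality and none listed at 0. S100a8 and S100a9 had the highest signals of that list in the knockout, 788.8 and 778.3, against 98.9 and 120.8 in the wild type. Csf1r was near level (log2 ratio 0.07). The summed signal of the 9 alpha, delta, PP and epsilon cell markers was 37795 in the knockout and 33741 in the wild type. That of the acinar markers was 52711 in the knockout and 48986 in the wild type, and that of the duct markers 6980 and 6281. The endothelial and mesenchymal sums were lower in the knockout. The sum of the 7 beta cell markers was 15164 in the knockout and 17399 in the wild type. The part of these cell types in the Rab3b ratio was not tested.

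Rab6b and Rab6a, closely related Golgi Rabs, differed in opposite directions on their brightest probe sets. Rab6b, the isoform enriched in neurons, had a signal of 109.2 in the knockout and 49.9 in the wild type, 2.19-fold higher (log2 ratio 1.13). Its wild-type signal was near the floor, it lies among the dimmest genes (SD 0.29), and it too had a single measured probe set. Rab6a, the widely expressed isoform of retrograde Golgi transport, had 269.2 in the knockout and 390.3 in the wild type, 1.45-fold lower (log2 ratio -0.54), the lowest ratio of any measured Rab. The other probe set of Rab6a was level (164.4 in the knockout, 164.8 in the wild type), so the lower value rests on 1 of 2 probe sets. The neuronal and Schwann marker list, given here because Rab6b is a neuronal isoform, summed to 857 in the knockout and 806 in the wild type. Of its 5 measured members, 2 were above equality, Nefl (log2 ratio 0.63) and Nefm (0.40). Below it were Sox10 (-0.04), Th (-0.26) and Dbh (-0.30). The part of this list in the Rab6b ratio was not tested.

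The distances between paralogues are widest within Rab3 and Rab6, which restates the high ratios of Rab3b and Rab6b and is not a separate result. The other measured Rab3 genes, Rab3a and Rab3d, were at -0.22 and 0.0042. The highest and lowest measured ratios were 1.67 apart (log2) within Rab6 and 1.37 apart within Rab3. The distance was 0.38 within Rab2, 0.34 within Rab5, and between 0.11 and 0.19 within Rab1, Rab4, Rab8 and Rab11. The array's annotation does not say where in each transcript a probe set lies, and how far related Rabs share probes was not tested.

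The promoters of both genes at least 2-fold apart are shown for the region their transcripts start from, as 250 bases ending just before the annotated start (RefSeq, GRCm38.p6, both on the plus strand). That of Rab3b is chr4:108878820-108879069 and that of Rab6b chr9:103111824-103112073. Capitals mark the GC box GGGCGG on either strand, 4 overlapping or separate matches in Rab3b and 1 in Rab6b.
Rab3b: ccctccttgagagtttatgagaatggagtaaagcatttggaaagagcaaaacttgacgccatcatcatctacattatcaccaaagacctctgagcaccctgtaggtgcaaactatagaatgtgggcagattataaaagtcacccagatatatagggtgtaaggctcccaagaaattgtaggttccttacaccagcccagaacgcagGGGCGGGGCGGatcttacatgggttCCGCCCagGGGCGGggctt
Rab6b: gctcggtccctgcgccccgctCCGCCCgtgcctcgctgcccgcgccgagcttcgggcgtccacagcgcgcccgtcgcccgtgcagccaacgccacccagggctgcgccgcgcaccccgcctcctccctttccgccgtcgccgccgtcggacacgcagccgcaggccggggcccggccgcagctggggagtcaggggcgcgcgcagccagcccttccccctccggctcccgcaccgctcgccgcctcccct

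The 2 windows are unlike in composition. The Rab6b window is 80.8% G and C and that of Rab3b 48.8%, beside a median of 52.4% over the 32851 RefSeq windows of the same length. A GC box occurs in 32.7% of all windows and in 40 of the 60 windows of Rab genes (66.7%). Those 60 windows cover 48 RefSeq genes with a Rab symbol, whether or not they were analysed here. The Rab3b window also holds TATAAA once, a match present in 12.4% of all windows. Neither window holds the CCAAT box, the ER stress element (0.113% of all windows), the unfolded protein response element TGACGTGG (0.563%) or the C/EBP-ATF element TGATGNAA (3.45%), each searched on both strands. Nothing about a factor follows from the lack of a match.

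The remaining measured ER and Golgi Rabs lay within 1.5-fold. Rab1a, which acts in transport between the ER and the Golgi, had a signal of 1859.7 in the knockout and 1994.1 in the wild type (log2 ratio -0.10), and its other probe set gave 0.13. Rab2a, which acts at the same step in retrograde transport, had 1056.5 in the knockout and 1007.7 in the wild type (0.07), and its 5 other measured probe sets ran from -0.31 to 0.10. Rab2b, its paralogue, had 115.7 in the knockout and 84.9 in the wild type (0.45), with 0.21 on a second probe set. Rab18, known from lipid droplets and the ER, was at -0.19 and -0.14 on its probe sets. Of the 9 measured members of this group 4 were above equality, with a median of -0.10 and a mean of 0.07, so the direction depends on the summary. The mean was -0.03 with median centring and -0.14 with a floor at the 60th percentile. With the second brightest probe set the median was 0.02 and 5 of 9 were above equality. Rab33a was at the floor in the knockout only and at least 1.15-fold lower, and Rab30 was at the floor on both arrays.

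Early endosome Rabs had a median and a mean of -0.08 over 8 measured genes, 5 of them below equality. With the second brightest probe set 4 were below equality, and the median was -0.0064 and the mean 0.06. With a floor at the 60th percentile the median was again -0.0064. Rab5a, the organiser of early endosome fusion, had a signal of 553.3 in the knockout and 602.1 in the wild type (log2 ratio -0.12). Rab21, which acts in integrin uptake, had 364.9 in the knockout and 471.5 in the wild type, 1.29-fold lower (-0.37). Its second probe set gave nearly the same ratio (-0.33), so both probe sets of Rab21 read lower in the knockout. Rab31, of transport between the Golgi and endosomes, had 72.1 in the knockout and 94 in the wild type (-0.38), but 0.06 on its other probe set. Rab22a was near level on its brightest probe set (0.07), while another read 105.1 in the knockout and 61 in the wild type (0.78), the only further Rab probe set past 1.5-fold among those measured on both arrays. These 2 values, 0.71 apart, are the widest disagreement among such probe sets, leaving aside the bound of Rab3d. Rab20, of the phagosome, was at the floor.

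Recycling and cell surface Rabs were above equality in 9 of 11 measured genes, with a median of 0.11 and none at 1.5-fold. With median centring 8 of 11 were above equality and the median was 0.01. Rab14, of transport between the Golgi and endosomes, had a signal of 933.9 in the knockout and 746.4 in the wild type (log2 ratio 0.32), but its 3 other measured probe sets ran from -0.25 to 0.33. Rab11a, of the recycling endosome, had 903.1 in the knockout and 867 in the wild type (0.06), and 0.11 on its other probe set. Rab17, an epithelial Rab of transcytosis, had 56.6 in the knockout and 40.8 in the wild type (0.47), a wild-type signal barely above the floor. The other members, among them the epithelial Rab25 (0.11), the exocytic Rab8a (0.15) and the neuronal endocytic Rab15 (0.41), lay between -0.06 and 0.41.

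Late endosome and lysosome Rabs had a median of 0.09 over 5 measured genes, which turned to -0.0060 with median centring and to -0.010 with a floor at the 25th or the 60th percentile. Rab7, which drives fusion of late endosomes with lysosomes, had a signal of 1097.4 in the knockout and 1259.6 in the wild type (log2 ratio -0.20), and -0.22 on its other probe set. Rab24, linked to autophagy, had 363.9 in the knockout and 331.1 in the wild type (0.14), and 0.32 on its other. Rab38, of lysosome-related organelles, had 62.5 in the knockout and 42.7 in the wild type, 1.46-fold higher (0.55) and just inside the 1.5-fold limit on 1 probe set. Rab29 was at 0.09 and Rab9 at -0.11, while Rab7b and Rab32 passed the floor on neither array.

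The 4 measured Rabs of other or less certain roles were at or above equality, but Rab28 was below it with median centring, quantile or loess normalisation, and with the median over probe sets or the second brightest one. Rab34, which acts in cilium formation, had a signal of 415 in the knockout and 317.2 in the wild type (log2 ratio 0.39), with 0.28 on its other probe set. Rab40c had 305.1 in the knockout and 270.7 in the wild type (0.17). Rab23, a negative regulator of Hedgehog signalling, was at 0.31. Rab28 was at 0.0016 on its brightest probe set and at -0.51 on the other, and Rab40b was at least 1.15-fold lower as a bound.

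**Figure D3:**
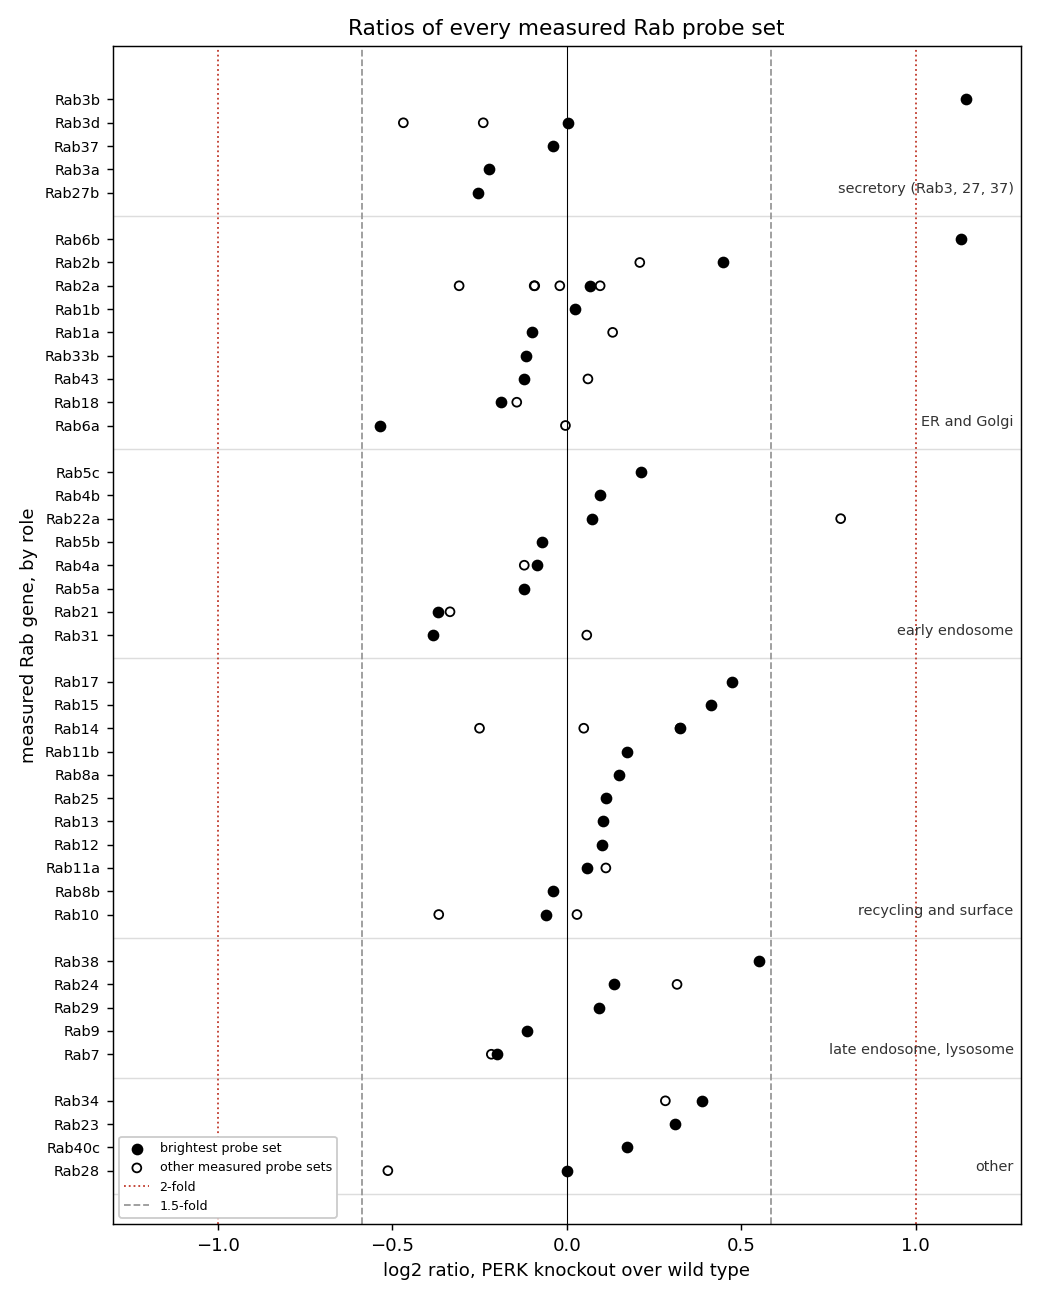
Log2 ratio of PERK knockout over wild type for every measured probe set of the 42 measured Rab genes, with filled points for the brightest probe set of a gene and open points for its others. Rab3b and Rab6b pass 2-fold on their only measured probe sets, and a dimmer probe set of Rab22a is the third past 1.5-fold. Bounds are not drawn.

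Where a second probe set was measured, it often placed a Rab on the other side of equality. Of the 18 Rab genes with at least 2 measured probe sets, 10 had all of them on 1 side and 8 had them on both. The highest and lowest probe sets of a gene were a median of 0.23 apart. The median size of a Rab log2 ratio between the libraries was 0.13, over all 42 measured genes. A range over several probe sets and the size of 1 ratio are unlike measures, so the 2 values are not ranked.

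Of 74 genes that act on Rabs or with them, 58 were measured, and 1 of these, Sytl4, was at least 2-fold lower, where 0.652% of all measured genes were. A second, Sytl1, was that much lower as a bound and is not among the 58. Both encode synaptotagmin-like effectors of Rab27. Sytl4 (granuphilin), which docks insulin granules through Rab27a, had a signal of 278 in the knockout and 692 in the wild type, 2.49-fold lower (log2 ratio -1.31). Sytl1, another Rab27 effector, had 6.90 in the knockout and 100.8 in the wild type and was at least 2.53-fold lower against the floor. Each had 1 measured probe set at most, and their direction is opposite to that of Rab3b. The beta cell marker list was also lower in the knockout (median log2 ratio -0.58), whereas the immune marker list was higher (0.72). The part of either list in the Sytl4 and Sytl1 differences was not tested.

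The other 5 measured genes of the secretory effector list were above equality, and none reached 1.5-fold. Unc13b, a priming factor that works with RIM proteins, had a signal of 201 in the knockout and 142.6 in the wild type (log2 ratio 0.50). Rims2, an active zone effector of Rab3, was at 0.11, with 0.14 on its other probe set. The median over the 6 measured members was 0.27 and the mean 0.03, but the mean turned to -0.04 with quantile or loess normalisation, -0.07 with median centring, -0.24 with a floor at the 60th percentile and -0.31 with the pseudocount.

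No measured regulator and no other effector was 1.5-fold apart. Over 31 measured exchange factors and GAPs the median was 0.13, and 18 were above equality. Within this list Tbc1d20, a GAP for Rab1, had the highest ratio (0.46, and 0.71 on its other probe set), with 161 in the knockout and 117 in the wild type, and Dennd4c, an exchange factor for Rab10, the lowest (-0.34). The brightest, the transport complex subunit Trappc1, was at -0.09. Over 15 measured other effectors the median was 1.4e-05, below 0 with median centring (-0.10) and quantile normalisation (-0.04), with Gorasp2, a Golgi stacking protein, at -0.06. Lrrk2, a kinase tied to Rab29, was at -0.43. Over 6 prenylation and GDI genes the median was 0.10, with Gdi2 at 0.05 and between -0.26 and 0.41 on its 5 other probe sets. Rabac1, which helps release Rabs from GDI, had 1411 in the knockout and 1114 in the wild type (0.34). Tbc1d20, Dennd4c, Lrrk2, Rims2 and Rabac1 were named after their values were seen, as was Unc13b.

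**Figure D4:**
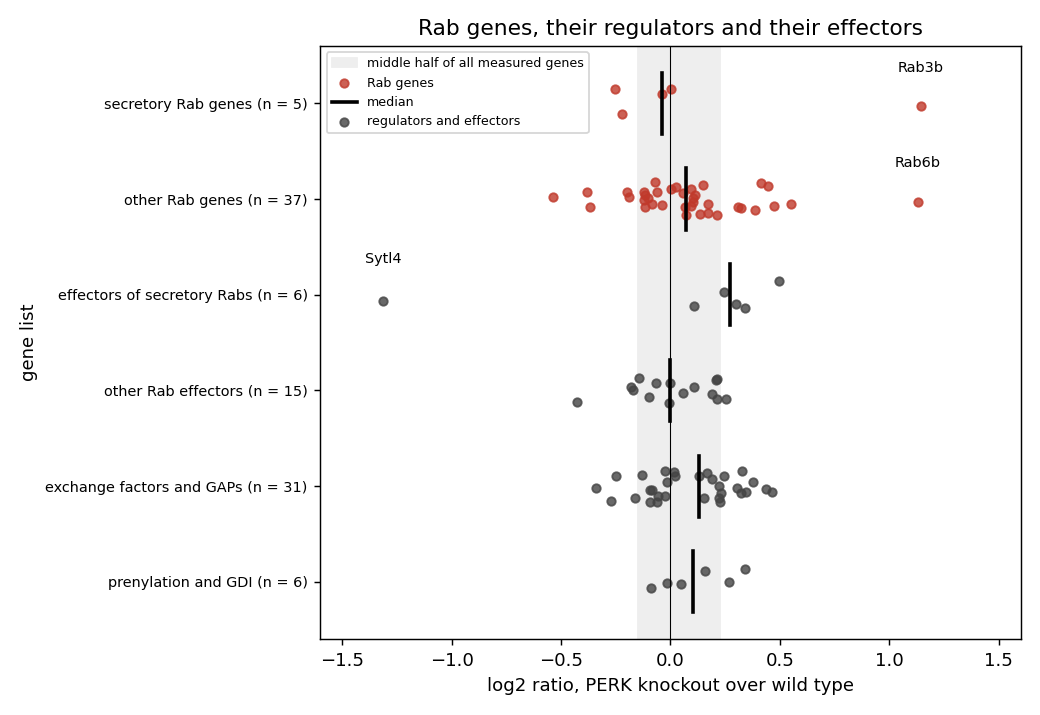
Log2 ratios of PERK knockout over wild type for the measured secretory and other Rab genes and for 4 lists of regulators and effectors, each point a gene and each bar a list median, over a grey band for the middle 50% of all measured genes (-0.15 to 0.23). Rab3b and Rab6b lie above 2-fold and Sytl4 below it, and the vertical scatter within a row has no meaning.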

How the data were processed

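Per probe set, the deposited value is a signal intensity on a linear scale. The submitters' processing notes name GCOS 1.02 and no other tool, and the sources used here do not give the background correction or the summary method. Trimmed means (2% off each end) were 150.1 on both arrays, so the deposited values were already scaled. The knockout array was brought to the trimmed mean of the wild type, signals under the 40th percentile (39.8) were set to it, and log2 ratios were taken (Python 3.11.15, NumPy 2.4.6, pandas 2.3.3, statsmodels 0.14.6, Matplotlib 3.10.9). Of 22690 probe sets, 20380 non-control ones had 1 platform symbol; 8133 genes passed the floor on both arrays, 693 on 1 and 3567 on neither. The number of arrays limits the precision. The procedure was tested on simulated data with planted changes larger than those of Rab3b and Rab6b. The noise came from probe set disagreement, so the test does not bear on differences of their size or on variation between animals.

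The Rab members, role groups, effector, regulator and marker lists were chosen with earlier results of these data known. Named are all secretory Rabs, Rabs past 1.5-fold or with a bound, the 5 highest and 5 lowest ratios and the 2 brightest of each role group. Other Rab genes stand by value or range. Regulator and effector list members past 1.5-fold and the brightest of each list are named. Of each marker list the brightest is named, and the further markers given were named after their values were seen. Promoters are RefSeq's. Alternatives changed scaling, floor and probe set choice.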

Additional observations from a re-analysis of the deposited data

How the results depend on the processing

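Rab3b was at least 2-fold higher under all 10 alternatives (log2 ratio 1.05 to 1.15). Rab6b had 0.93 (1.90-fold) with a pseudocount of 16 and no floor, and under a floor at the 60th percentile it was a bound of at least 1.21-fold, so the count of 2-fold higher Rabs was 1 under either setting, and the 1.5-fold count was 1 under the second. The 1.5-fold count was 3 with the second brightest probe set, which brings in Rab22a. A single Rab, Rab6a, was 1.5-fold lower with median centring (log2 ratio -0.63). With a floor at the 25th percentile (19.3) the single one was Rab3c, at 19.3 in the knockout and 33.4 in the wild type. Its knockout signal thus lay at that floor. No alternative gave a Rab 2-fold lower. Median centring gave medians of -0.035 over all Rabs, -0.027 over other Rabs, 0.0099 over all regulators and effectors, 0.043 over exchange factors and GAPs and -0.10 over other effectors. The secretory median was -0.22 with the median or the second brightest probe set, and then lay below other Rabs by a difference of -0.32 in both cases. The median over all regulators and effectors was 0.056 with the 25th percentile floor and 0.038 with the pseudocount, where that of exchange factors and GAPs was 0.055. With the 60th percentile floor the secretory effector median was 0.11 over 3 genes, and Eif2ak3, floored in the knockout, had -0.38. Rab6a had -0.27 as the median over probe sets. The floor and the choice of probe set set which genes are compared, and other causes were not tested. No paired analysis was possible because each genotype had 1 array.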
